A study of Homo sapiens with 20 samples.

Results

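The strongest chromatin loops held in common by all 4 GBM cell lines of the study are described here. A loop is a pair of anchors of about 5 kb on the same chromosome, and its strength is the signal deposited for it. A loop was taken when the identical pair of anchors ranked among the 20000 highest strengths in the list of every line. This selected 6181 of the 572000 anchor pairs listed in any line (1.08%), and 30.9% of the 20000 strongest of each line. The lists come from Hi-C, in which chromatin segments that touch in the nucleus are ligated and sequenced as pairs. Of the GBM cell lines, H4 and 42MGBA are STAG2-mutant and carry a truncating mutation of their own, a frameshift in H4 and a premature stop in 42MGBA. In H4 88-1, derived from H4, and in 42MGBA 53-1, derived from 42MGBA, gene editing had corrected the mutant allele (STAG2-WT), and each corrected genotype is represented by 1 derivative. All 4 lines were grown in the same medium without a treatment, and 2 Hi-C replicates of each line were pooled by the authors into 1 list of 300000 anchor pairs. With 1 pooled value per line there is no replicate error and no test is possible, so that every value below describes these libraries. The lists hold no read counts, and the depth behind a loop is unknown. The strength is an average over many cells, in which a loop that is present in more cells cannot be told apart from a loop that holds its anchors together for longer.

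Cohesin is a ring complex that extrudes loops of chromatin until it is halted, most often at CTCF, a zinc finger protein whose binding motif has a direction. Loops halted in this way tend to carry motifs that point toward each other at their anchors, an arrangement called convergent. STAG2 is one of the alternative STAG subunits of cohesin, and its paralog STAG1 remains in cells that lack it. Loops can bring enhancers to promoters, and they can also wall off genes from their neighbors.

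For orientation, the sequences of 4 of these loops are shown first, because the direction of the CTCF motif is a feature that the selection on strength did not use. When each of the 727 groups of neighboring loops was represented by 1 loop, 31 representatives had exactly 1 match to the motif CCACNAGNNGGC at each anchor, and 26 of these were convergent. Of the 31, 29 were considered for printing. The rule took the 4 strongest of them and the next one that was not convergent, and 1 of these 5 is not printed because a window touches a UTR. The loop left out is among the 4 strongest and has both motifs on the plus strand, so that it is not convergent either. Each line gives 60 bases of hg19 in the direction of the motif, with the motif in capitals. A match is a description of the sequence and does not show that CTCF is bound.
First anchor on chromosome 1, intron of PGM1, chr1:64081659-64081718, plus strand: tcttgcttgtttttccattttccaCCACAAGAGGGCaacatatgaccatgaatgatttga
Second anchor on chromosome 1, intron of UBE2U, chr1:64708831-64708890, minus strand: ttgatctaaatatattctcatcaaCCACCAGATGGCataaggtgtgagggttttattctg
First anchor on chromosome 10, intergenic, chr10:90789753-90789812, plus strand: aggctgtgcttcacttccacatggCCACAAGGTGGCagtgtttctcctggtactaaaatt
Second anchor on chromosome 10, intergenic, chr10:90973133-90973192, minus strand: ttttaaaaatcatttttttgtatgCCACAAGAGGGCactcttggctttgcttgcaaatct
First anchor on chromosome 17, intron of DHX8 and ETV4, chr17:41654157-41654216, plus strand: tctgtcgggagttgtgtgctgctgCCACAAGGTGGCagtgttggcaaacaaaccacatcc
Second anchor on chromosome 17, intergenic, chr17:41751323-41751382, minus strand: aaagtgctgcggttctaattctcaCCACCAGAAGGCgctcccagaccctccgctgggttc
First anchor on chromosome 21, intron of KCNJ15, chr21:39542970-39543029, minus strand: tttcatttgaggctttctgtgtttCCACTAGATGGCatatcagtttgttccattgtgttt
Second anchor on chromosome 21, intergenic, chr21:39728103-39728162, minus strand: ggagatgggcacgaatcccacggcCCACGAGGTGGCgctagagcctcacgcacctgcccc

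The first 3 of these loops are convergent. In the chromosome 1 loop, which spans the gene of the receptor ROR1, the strength was 24.2 in H4 cells and 20.8 in H4 88-1, and 26.9 in 42MGBA and 27.4 in 42MGBA 53-1. The chromosome 10 loop spans CH25H, the cholesterol 25-hydroxylase gene, and had a strength of 15.6 in H4 cells and 19.4 in H4 88-1, and 23.4 in 42MGBA and 23.4 in 42MGBA 53-1. The chromosome 17 loop runs from the gene of the ETS factor ETV4 across MEOX1, a homeobox gene, with strengths of 21.97, 21.6, 18.9 and 17.4 in the same order. The chromosome 21 loop starts in KCNJ15, a potassium channel gene, and has both motifs on the minus strand, a tandem arrangement. Its strength was 14.6 in H4 cells and 18.1 in H4 88-1, and 20.5 in 42MGBA and 18.4 in 42MGBA 53-1.

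The isogenic partners shared most of their strongest loops, and the systems shared fewer. Of the 20000 strongest anchor pairs, 68.6% were common to H4 and H4 88-1 and 67.9% to 42MGBA and 42MGBA 53-1, but only 42.0% to 46.9% to a line of each system. Anchor pairs among the 20000 strongest of both H4-derived lines and of neither 42MGBA-derived line numbered 5083, and the reverse held for 5176. By contrast, 560 pairs belonged to both STAG2-mutant lines alone and 504 to both STAG2-corrected lines alone. Membership thus followed the cell system far more often than the STAG2 genotype. The share common to all lines grew with the rank limit, from 17.1% of the 1000 strongest pairs to 28.3% of the 10000 strongest and 36.8% of all 300000.

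**Figure D1:**
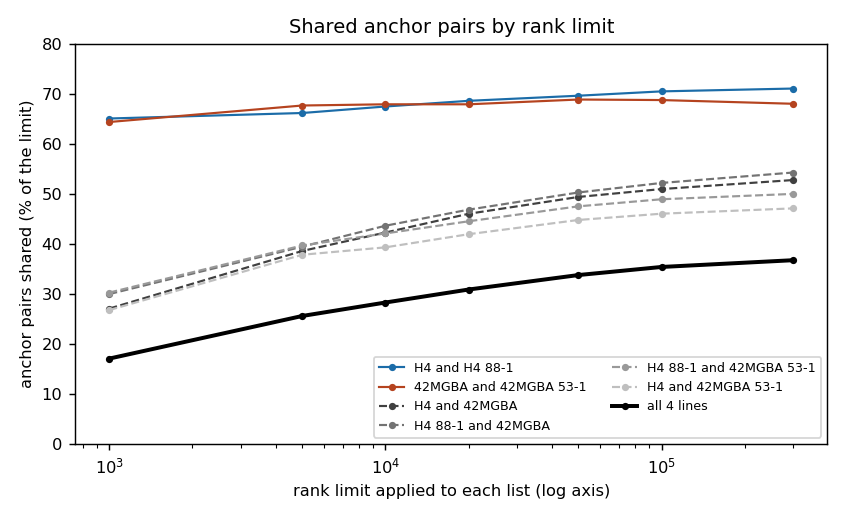
Shared anchor pairs as a percentage of the rank limit (y axis) against the rank limit applied to each list (x axis, log scale), for all 4 lines, for each isogenic pair (solid lines) and for each pair of lines across systems (dashed lines). The isogenic pairs lie between 64.4% and 71.1% at every limit, and the share common to all 4 lines rises from 17.1% to 36.8%.

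Another 4694 anchor pairs were among the 20000 strongest of exactly 3 lists. Of these, 1513 were missed by 42MGBA 53-1, where their median rank was 33776 and 34 were not listed at all. H4 missed 1275 pairs (median rank 29446, 1 not listed), H4 88-1 missed 956 (median rank 27945, 2 not listed) and 42MGBA missed 950 (median rank 28344, all listed). Most near-members therefore still stood high in the list that missed them.

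The selection fixed the floor of the strengths, which are given as a description. The strength at rank 20000 was 8.97 in H4 cells and 9.41 in H4 88-1, and 9.50 in 42MGBA and 8.70 in 42MGBA 53-1. The median strength of the common loops was 12.0, 12.5, 12.9 and 11.7 in the same order, and the highest was 35.5, 34.3, 38.3 and 33.7. The common loops were not confined to the edge of the lists: they made up 730 of the 1000 strongest pairs of H4, 773 of H4 88-1, 854 of 42MGBA and 833 of 42MGBA 53-1. Of the 100 strongest pairs, 69, 85, 94 and 96 were common loops. The last pair inside the limit, on chromosome 4 between chr4:8247516-8252188 and chr4:8402857-8407769, had a rank of 19998 in 42MGBA, with strengths of 9.05 in H4 cells and 14.1 in H4 88-1, and 9.50 in 42MGBA and 8.93 in 42MGBA 53-1. The first pair outside it, on chromosome 10 between chr10:112064951-112069906 and chr10:112339782-112344487, had a rank of 20002 in 42MGBA 53-1, with strengths of 9.85, 9.61, 10.7 and 8.70. In the other lines the pair inside ranked 19324 in H4, 2676 in H4 88-1 and 17763 in 42MGBA 53-1. The pair outside ranked 13391 in H4, 18308 in H4 88-1 and 12049 in 42MGBA.

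Many of the 6181 anchor pairs are neighbors of one another and share reads and smoothing. Joining pairs whose anchors both lay within 10 kb left 727 groups, of which 105 consisted of a single pair. The median group held 5 pairs and the largest 88, and the 71 groups of 20 or more pairs held 2241 pairs (36.3%). Below, a group is represented by the pair with the largest geometric mean of the 4 strengths. In all, the common loops used 4294 distinct anchors, of which only 40 served as the first anchor of one loop and the second anchor of another.

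EGFR, CEBPB, IL6, GREM1 and ADAMTS15 were among the genes at or within the 10 strongest groups. The strongest group lies on chromosome 11 and joins chr11:130302013-130306571 with chr11:130732102-130737034, an exon of SNX19, over 430 kb. Between its anchors is the 5′ end of ADAMTS15, which encodes a secreted metalloproteinase, and its strength was 28.1 in H4 cells and 29.2 in H4 88-1, and 38.3 in 42MGBA and 27.5 in 42MGBA 53-1. The value of 42MGBA was thus the highest of any common loop, while the other lines were close together. This group held 82 anchor pairs, and 23 common loops reached, within 3 kb, a start site of the neighboring gene ADAMTS8.

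The second group starts at CEBPB, a transcription factor gene of mesenchymal glioma, and joins chr20:48801927-48806783 with the intergenic anchor chr20:49075457-49080317, 274 kb away. The CEBPB loop had a strength of 25.2 in H4 cells and 22.3 in H4 88-1, and 35.98 in 42MGBA and 33.7 in 42MGBA 53-1, with both 42MGBA-derived lines above both H4-derived lines. Also on chromosome 20, a loop of 614 kb between chr20:56169873-56174753 and chr20:56783864-56788678 spans PMEPA1, a TGF-beta-induced inhibitor of TGF-beta signaling, together with ZBP1 and C20orf85. Its strength was 17.3 in H4 cells and 22.8 in H4 88-1, and 31.9 in 42MGBA and 32.9 in 42MGBA 53-1, again without overlap between the systems. The common loops of chromosome 20 as a whole went in the same direction. Their median log2 ratio was 0.52 between 42MGBA and H4 and 0.26 between 42MGBA 53-1 and H4 88-1. The order at CEBPB and PMEPA1 is thus not particular to these loops.

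EGFR, the receptor tyrosine kinase most often altered in GBM, lies alone within the third group. The EGFR loop joins chr7:54838337-54843252, in an intron of the noncoding gene SEC61G-DT, with chr7:55321194-55326002, which overlaps an exon of the noncoding gene ELDR, over 483 kb. Its strength was 27.4 in H4 cells and 25.3 in H4 88-1, and 25.4 in 42MGBA and 24.8 in 42MGBA 53-1, within 1.10-fold of one another. GREM1, which encodes a secreted antagonist of BMPs, was likewise enclosed by a loop of even strength, between chr15:32950069-32954897 and chr15:33284733-33289738 in an intron of FMN1. This 335 kb loop measured 22.6 in H4 cells and 21.9 in H4 88-1, and 23.9 in 42MGBA and 24.4 in 42MGBA 53-1. A 188 kb loop with start sites at both anchors, GRHL3 (a Grainyhead-like transcription factor) at chr1:24523961-24528940 and STPG1 at chr1:24712423-24717394, was as even, at 25.8, 24.0, 25.2 and 26.4.

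Other groups of the 10 strongest differed more between lines. The ROR1 loop shown above by its sequence headed the largest group, with 88 anchor pairs. A 498 kb loop on chromosome 14 between chr14:51745037-51749873 and chr14:52243397-52248375 spans FRMD6, which encodes a FERM domain protein, and had strengths of 22.2 in H4 cells and 21.7 in H4 88-1, and 28.0 in 42MGBA and 26.2 in 42MGBA 53-1. The cytokine gene IL6 lies within a 497 kb loop between chr7:22594471-22599486 and chr7:23091760-23096612, with strengths of 25.7, 27.3, 24.2 and 20.7. The largest contrast was at SNX10, a sorting nexin gene. An annotated transcript start near its 3′ end, at chr7:26407147-26411645, was joined to chr7:26702239-26707169 in SKAP2, 295 kb away. Here the strength was 35.1 in H4 and 34.3 in H4 88-1 but 15.6 in 42MGBA and 17.1 in 42MGBA 53-1, a 2.25-fold range that separated the systems and not the genotypes.

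**Figure D2:**
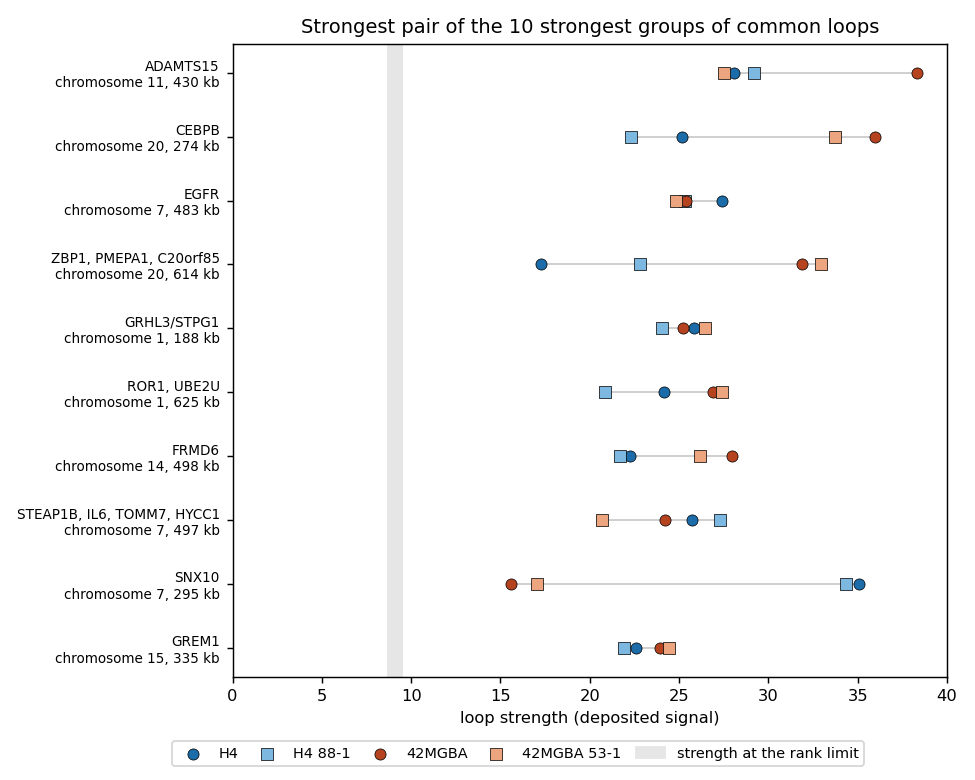
Loop strength (x axis, deposited signal) in each of the 4 lines for the strongest pair of each of the 10 strongest groups. Labels on the y axis are the genes whose 5′ ends lie between the anchors or, where there are none, that have an annotated transcript start at an anchor. Circles are STAG2-mutant and squares STAG2-corrected lines, and the grey band spans the strengths at rank 20000, from 8.70 to 9.50. The EGFR loop is nearly equal in all lines, and the SNX10 loop is higher in H4 and H4 88-1.

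Some anchors took part in many common loops. The median anchor belonged to 2 loops and 1269 anchors to 1 only, whereas 290 belonged to 2 or more groups and 20 to 3 or more. The busiest anchor, chr1:64705621-64709864 in UBE2U, was the second anchor of 25 loops of 538 to 655 kb, all of the ROR1 group. The chr11:130302013-130306571 anchor of the ADAMTS15 group and chr7:81130154-81134950 each served 20 loops, always as the first anchor. Loops of the latter reached 438 to 528 kb and had a median strength of 16.2 in H4 cells and 13.0 in H4 88-1, and 12.5 in 42MGBA and 13.7 in 42MGBA 53-1. The remaining anchors of the top 5 served 16 loops each. One, chr1:59202928-59207851, lies in an intron of a noncoding gene and belonged to 2 groups of 951 to 1034 kb, and the other, chr14:68713194-68717979 in an intron of the DNA repair gene RAD51B, was the first anchor of 11 loops and the second of 5.

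The common loops were of middle size. Their median size was 339 kb, with an interquartile range of 227 to 477 kb and a full range of 57.7 to 1323 kb, and the SD of the median over chromosomes was 84.4 kb. Pairs among the 20000 strongest of exactly 3, 2 and 1 lists had medians of 340 kb, 350 kb and 339 kb, and those of no list 298 kb. All of these lay within that SD of the median of the common loops. The SD describes the spread over chromosomes and is not the error of a median. At the short end, 119 common loops (1.93%) were under 100 kb against 10.1% of all listed pairs, and at the long end 149 (2.41%) were 1 Mb or more against 3.73%. Pairs among the 20000 strongest of exactly 3 lists had nearly the same shares, 2.05% and 2.62%.

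The 3 shortest representatives each enclosed the 5′ end of 1 gene. A 63.4 kb loop between chr1:151906895-151911848 and chr1:151970256-151975188 encloses S100A10, an S100 protein gene, and had strengths of 12.0 in H4 cells and 9.92 in H4 88-1, and 12.6 in 42MGBA and 14.3 in 42MGBA 53-1. A 64.4 kb loop between chr14:23589456-23594464, at the start of CEBPE, and chr14:23653913-23658798, at the starts of RNF212B and SLC7A8, had strengths of 10.9, 11.1, 13.6 and 12.1. The 67.1 kb loop between chr17:41770590-41775070 and chr17:41837420-41842396 ends at SOST, the gene of the WNT inhibitor sclerostin, with strengths of 13.9, 14.3, 12.6 and 12.7.

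The 3 longest representatives enclosed only 1 or 2 genes each. A loop of 1288 kb ran from the IGFBP1 start at chr7:45929583-45934501 to chr7:47217387-47222217 and enclosed only IGFBP3, both genes of insulin-like growth factor binding proteins. Its strength was 20.4 in H4 cells and 20.9 in H4 88-1, and 14.4 in 42MGBA and 12.5 in 42MGBA 53-1, without overlap between the systems. A 1297 kb loop from chr1:55749777-55754730 to the PLPP3 start at chr1:57047240-57052257 had strengths of 10.1, 10.3, 15.7 and 11.5. The longest, of 1318 kb, joined chr2:226531533-226536496 in an intron of NYAP2 with chr2:227849866-227854836 in RHBDD1 and spanned IRS1, the insulin receptor substrate gene, with strengths of 10.3, 11.2, 13.3 and 10.7.

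CTCF motifs at the anchors of the common loops pointed into the loop. At the first anchor of the 727 group representatives, the bin of 5 kb around the anchor center held 149 matches on the plus strand and 10 on the minus strand. At the second anchor these numbers were reversed, 10 on the plus and 149 on the minus strand. More than 50 kb away, a bin held 9.64 ± 4.05 plus-strand and 10.9 ± 4.72 minus-strand matches at the first anchor and 12.0 ± 4.47 and 10.1 ± 3.61 at the second (mean ± SD over 22 bins). The excess at the center was therefore found on 1 strand only. Matches on both strands were more frequent outside the loop than inside it. Within 25 kb outside the first anchor there were 96 plus-strand and 122 minus-strand matches, against 70 and 51 within 25 kb inside it. Outside the second anchor there were 102 plus-strand and 109 minus-strand matches, against 30 and 49 inside it. Groups that share an anchor count its motifs more than once.

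**Figure D3:**
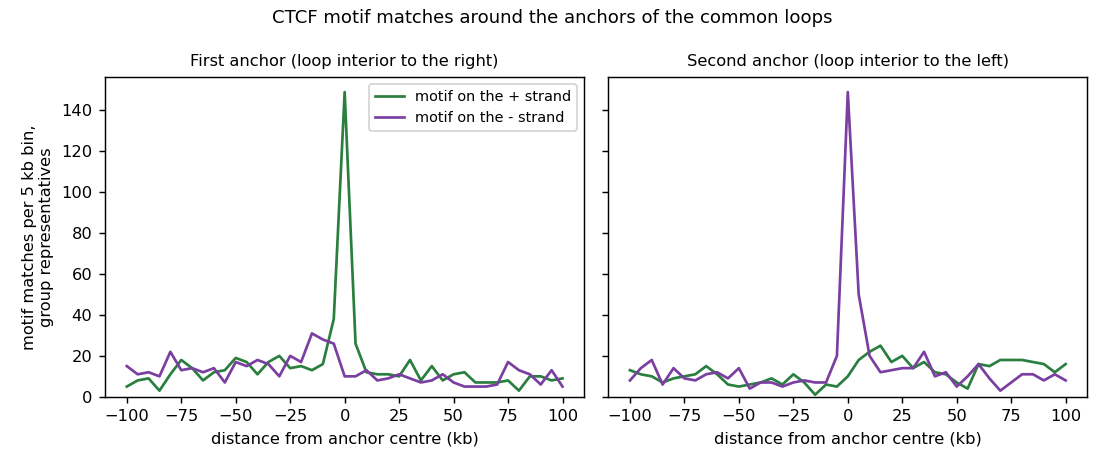
Matches to the CTCF motif per 5 kb bin (y axis) by distance from the anchor center in kb (x axis) for the first and the second anchors of the 727 group representatives, on the plus strand and on the minus strand. The plus strand peaks at 149 matches at the first anchor and the minus strand at 149 at the second, and the strand pointing out of the loop stays at 10 at both centers.

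By single loops, 714 of the 6181 (11.6%) had a match at the first anchor and 793 (12.8%) at the second, against 6.20% and 6.09% of listed pairs in no top list. Pairs among the 20000 strongest of exactly 3 lists were close to the common loops, at 11.3% and 10.4%. Convergent matches were found at 72 loops (1.16%, exact 95% binomial interval 0.913% to 1.46%) against 0.167% of pairs in no top list, and divergent matches at 2 loops (0.0324%) against 0.0329%. The interval covers counting error only and takes neighbors as independent. Pairs among the 20000 strongest of exactly 3, 2 and 1 lists had convergent matches in 0.895%, 0.573% and 0.508%. Convergent matches were thus not particular to the common loops. Of the 88 common loops with exactly 1 match at each anchor, 64 were convergent and 2 divergent, and of 31 such representatives 26 were convergent and 0 divergent. Of the 55 such pairs in exactly 3 lists, 38 were convergent and 1 divergent. The share of convergent loops was above that of all listed pairs in each bin of size. It was 3.36% (4 of 119 loops) against 0.177% below 100 kb and 1.09% (29 of 2654) against 0.220% from 200 to 400 kb. At 800 kb or more it was 0.602% (2 of 332) against 0.160%. The outer bins rest on few loops, which can be neighbors, and no trend with size is read from them. With 5 kb added on each side of the anchors, 6.36% of common loops and 1.33% of pairs in no top list were convergent.

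The 12-base motif is strict and most anchors lacked it, with 15644 matches in the genome or 5.05 per Mb over both strands. Letters of the motif read backwards, which form a CpG that is rare in the genome, matched at 60 first anchors (0.971%) against 0.827% of pairs in no top list, and no common loop had convergent matches. With a pair of letters exchanged so that no CpG is formed, 356 first anchors matched (5.76% against 4.86%) and 11 loops had convergent matches (0.178% against 0.0820%). The base composition of the anchors was similar, with a median GC content of 42.5% for anchors of common loops and 41.8% for all listed anchors.

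Strong groups without a common loop also had such motifs. In H4, plus-strand matches stood at the first anchor of 18.8% of the 702 groups of strong pairs that included a common loop and 17.8% of the 986 groups that did not. The shares were 18.7% and 17.7% in H4 88-1, 18.1% and 17.2% in 42MGBA, and 19.9% and 15.4% in 42MGBA 53-1. Minus-strand matches at the second anchor stood in 17.7% and 18.7% of these groups in H4 and in 17.8% and 17.3% in H4 88-1, and in 19.5% and 16.1% in 42MGBA and 18.2% and 14.7% in 42MGBA 53-1. Convergent matches were found in 3.13% and 3.35% in H4, 4.14% and 2.35% in H4 88-1, 4.53% and 3.19% in 42MGBA, and 3.68% and 2.87% in 42MGBA 53-1. Groups without a common loop were smaller, with a median of 4 pairs against 12 or 13, and weaker, with a median strength of 9.82 to 10.8 against 12.3 to 13.7.

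Start sites lay at the anchors of common loops about as often as at those of other loops. The start of any annotated transcript of a protein-coding gene counted. One was within 3 kb of an anchor in 2762 common loops (44.7%, exact 95% binomial interval 43.4% to 45.9%) and in 44.4% of pairs in no top list. This interval also covers counting error only and takes neighbors as independent. Over the 727 group representatives the share was 47.7%, outside the interval. Both anchors had one in 406 loops (6.57%) against 9.11%. By size the share was 58.0% of common loops under 100 kb and 26.5% at 800 kb or more, and among all listed pairs 57.7% and 29.7%. At the anchors of the representatives, 242 genes (55.1%) were transcribed into the loop and 197 (44.9%) away from it.

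The share of pairs that enclosed a single gene was higher the more lists held the pair among their strongest. Exactly 1 protein-coding gene had its 5′ end between the anchors of 52.9% of common loops and of 50.7%, 48.4% and 44.1% of pairs among the 20000 strongest of exactly 3, 2 and 1 lists, against 36.7% of pairs in no top list. None was enclosed by 11.4% of common loops, by 13.4%, 14.7% and 17.9% of the pairs in 3, 2 and 1 lists, and by 25.4% of those in none. The difference from all listed pairs was present at each size: between 100 and 200 kb, 61.5% of common loops and 39.2% of all listed pairs enclosed exactly 1 gene, and between 400 and 800 kb 50.0% and 40.2%. Of the 727 representatives, 363 enclosed exactly 1 gene and 93 none. There were 4.11 5′ ends per Mb inside common loops, 4.61, 4.13 and 4.39 inside pairs in 3, 2 and 1 lists, and 4.87 inside pairs in no top list.

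Of the gene lists, HOX genes most often had common loops at their start sites, followed by mesenchymal glioma genes. Most of the other lists also had a share above that of all genes. The lists were chosen with earlier results of these data known, so these shares are a description. They were not set beside those of pairs in fewer top lists, so they are not shown to be particular to the common loops. Of all 20136 protein-coding genes, 596 (2.96%) had a common loop at a start site and 1106 (5.49%) lay between the anchors of one. Any annotated transcript start counted, and for CDK6, SMC3 and SLC1A3 below the anchor lies near the 3′ end of the gene. Among HOX genes, which set the identity of body segments and are clustered so that neighbors share anchors, 24 of 39 (61.5%) had a loop at the start and 25 were enclosed. Among 57 mesenchymal glioma genes the numbers were 10 (17.5%) and 16 (28.1%), and among 120 developmental transcription factors outside HOX 10 (8.33%) and 26 (21.7%). Counts at the start were small in the other lists. They were 3 of 31 glioblastoma drivers (9.68%), 2 of 26 glial and neural stem cell genes (7.69%) and 1 of 16 cohesin and CTCF genes (6.25%). For TGF-beta, BMP and WNT genes they were 3 of 63 (4.76%) and for axon guidance genes 1 of 44 (2.27%). None of 26 Polycomb genes and none of 25 housekeeping genes had a common loop at the start, and 0 and 1 were enclosed. Of the 26 Polycomb genes, 18 had some listed pair at the start, as did 15 of the housekeeping genes. At the share over all genes with a listed pair, 5.95%, about 1 gene of each of these lists would have a common loop at its start, so that the counts of 0 are near the background. Over genes with a listed pair, the share was 61.5% for HOX genes and 19.2% for mesenchymal glioma genes.

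At the HOXA cluster, 40 common loops in 4 groups lay at the start of HOXA13, the most 5′ gene of the cluster. The strongest, of 723 kb between chr7:27236793-27241554 and chr7:27959619-27964386, had strengths of 26.0 in H4 cells and 25.6 in H4 88-1, and 14.0 in 42MGBA and 15.3 in 42MGBA 53-1. At the HOXB cluster, HOXB3 and HOXB5 shared an anchor at chr17:46664966-46669701, joined to chr17:46412370-46417322, with strengths of 20.7, 25.1, 16.8 and 15.0. HOXB6 was joined to the same distal anchor, with strengths of 19.0, 21.5, 16.3 and 15.9. All of these HOX loops were stronger in both H4-derived lines than in both 42MGBA-derived lines.

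Matrix genes were among the mesenchymal genes with common loops at the start. The COL1A2 start, of a collagen I chain, had 12 common loops, of which the strongest, 102 kb long between chr7:93921800-93926659 and chr7:94023831-94028743, measured 14.9 in H4 cells and 16.4 in H4 88-1, and 29.2 in 42MGBA and 28.0 in 42MGBA 53-1. COL3A1, of collagen III, had a 451 kb loop between chr2:189388481-189393490 and chr2:189839842-189844641 with strengths of 18.3, 17.5, 22.2 and 18.0. THBS1, of the matrix protein thrombospondin, had a 405 kb loop between chr15:39462945-39467823 and chr15:39868309-39873227 with strengths of 13.5, 16.1, 16.9 and 16.5. The collagen I loop was the only one of these in which the systems were far apart.

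Among transcription factors outside HOX, SNAI2, a regulator of epithelial-mesenchymal transition, had 27 common loops in 3 groups at its start, and the strongest, of 603 kb, measured 21.2 in H4 cells and 20.5 in H4 88-1, and 26.3 in 42MGBA and 18.7 in 42MGBA 53-1. Its paralog SNAI1 had 12, with a strongest loop of 92.4 kb between chr20:48593367-48598371 and chr20:48685743-48690752 and strengths of 15.3, 15.6, 18.3 and 16.1. FOXC2, a forkhead factor, had a 501 kb loop between chr16:86594342-86599196 and chr16:87094914-87099694 with strengths of 18.9, 22.1, 14.2 and 16.7. DLX2, a homeobox gene of the forebrain, had 8 loops, of which the strongest, between chr2:172561820-172566575 and chr2:172967258-172972243, was nearly even at 17.6, 15.9, 16.9 and 18.4.

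Of the glioblastoma drivers, PDGFRA, a receptor tyrosine kinase gene, had 5 common loops, and its strongest, of 319 kb between chr4:54771499-54776467 and chr4:55090708-55095703, measured 13.3 in H4 cells and 16.5 in H4 88-1, and 19.6 in 42MGBA and 12.6 in 42MGBA 53-1. CDK6, of a cell cycle kinase, had a 438 kb loop between chr7:92243896-92248579 and chr7:92681336-92686213 with strengths of 17.6, 16.3, 13.9 and 10.9. MYC had a single common loop, of 441 kb, close to the rank limit at 9.24, 9.72, 11.9 and 11.2. SMC3, which encodes a core subunit of cohesin, had 13 loops in 2 groups, with a strongest loop of 294 kb between chr10:112064951-112069906 and chr10:112359267-112364108 at 14.4, 12.3, 12.5 and 10.3. STAG2 itself had no common loop at its start. Only 2.96% of all protein-coding genes had a common loop there, so nothing is read from its absence at STAG2.

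The smaller lists held single examples. The glutamine synthetase gene GLUL had 3 loops, the strongest at 12.6 in H4 cells and 10.2 in H4 88-1, and 12.8 in 42MGBA and 14.0 in 42MGBA 53-1, and the astrocyte glutamate transporter gene SLC1A3 had 1, at 9.92, 10.7, 10.9 and 11.6. DKK1, of a WNT inhibitor, had 8 loops in 2 groups, the strongest of 256 kb at 14.9, 18.4, 15.1 and 12.1. WNT7B had a single loop at 14.4, 16.3, 13.7 and 8.78, TGFB3 had 1 at 9.34, 10.4, 15.9 and 15.4, and the ephrin receptor gene EPHB3 had 2, with the stronger at 17.5, 21.8, 11.5 and 9.83. At TGFB3 the 42MGBA-derived lines were higher and at EPHB3 the H4-derived lines.

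The common loops were unevenly spread over chromosomes. Chromosome 7 held 791 (12.8%), chromosome 1 711 (11.5%), chromosome 5 646 (10.5%) and chromosome 2 592 (9.58%), whereas chromosome 22 held 30, chromosome 19 17 and chromosome 13 10. By length, chromosome 20 had the most groups, 0.413 per Mb, and chromosome 7 had 0.371. On chromosome 7 the share of the common loops lay between that of the 20000 strongest of H4, 18.95%, and that of 42MGBA, 7.49%. Chromosome 20 showed the opposite order, with 4.56% of the common loops, 2.33% of the strongest of H4 and 8.23% of those of 42MGBA. On chromosome 5 the common loops had a larger share than the strongest pairs of any single line, of which the highest was 9.36% in 42MGBA 53-1.

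**Figure D4:**
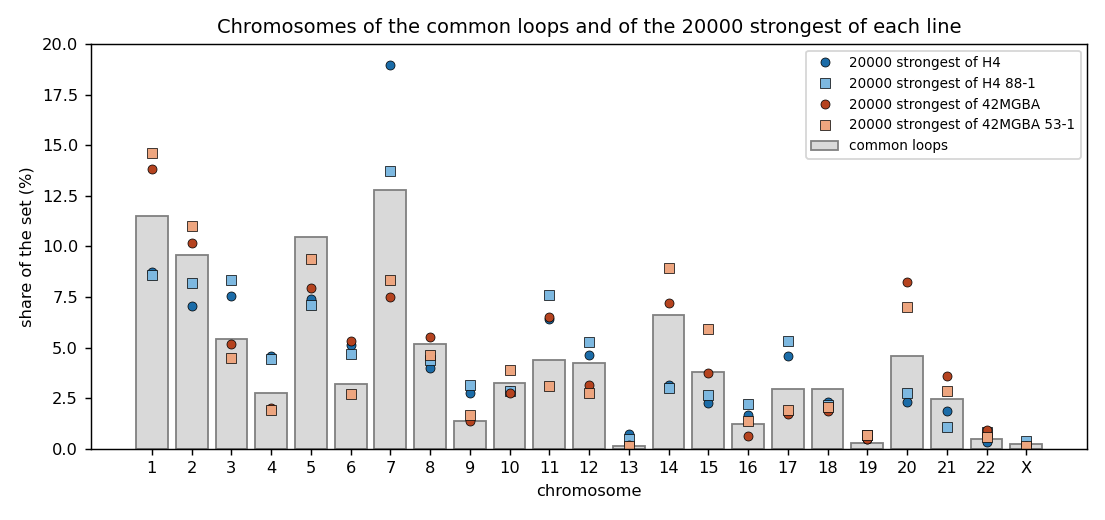
Share of the common loops (bars) and of the 20000 strongest pairs of each line (points) on each chromosome (x axis), in percent of the set (y axis). Chromosome 7 has 12.8% of the common loops and ranges from 7.49% to 18.95% over the lines, and chromosome 13 has 10 common loops.

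STAG2-corrected and STAG2-mutant lines differed little at the common loops, with medians of opposite sign in the 2 systems as deposited but not after centering. In H4 88-1, 3842 of the 6181 common loops (62.2%) were stronger than in H4, with a median log2 ratio of 0.063 (interquartile range -0.078 to 0.20), a value that turned to -0.025 when the median of all pairs listed in both lines, 0.088, was subtracted. In 42MGBA 53-1, 1562 common loops (25.3%) were stronger than in 42MGBA, with a median log2 ratio of -0.14 (-0.27 to 0.0016) against -0.086 over all listed pairs. Over chromosomes, the SD of the median was 0.074 in H4 and its derivative, larger than the median itself, and 0.099 in the 42MGBA system. The strengths that chose the loops enter these ratios, and neighboring loops are not independent.

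The ratio varied with loop size. The median log2 ratio of H4 88-1 to H4 was 0.099 in common loops under 100 kb and 0.12 from 100 to 200 kb, then 0.078, 0.015 and, at 800 kb or more, -0.054. In the 42MGBA pair it was -0.099, -0.095, -0.13, -0.17 and -0.14 over the same bins. All listed pairs had medians of 0.13, 0.16, 0.10, 0.051 and -0.064 in the H4 pair and -0.0047, -0.044, -0.086, -0.14 and -0.17 in the 42MGBA pair. In both systems the median of the common loops was thus below that of listed pairs of their size under 800 kb and above it at 800 kb or more. At 800 kb or more the medians of the H4 pair, -0.054 and -0.064, were close. The common loops were chosen on these strengths and the listed pairs were not, so nothing is read from this order.

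**Figure D5:**
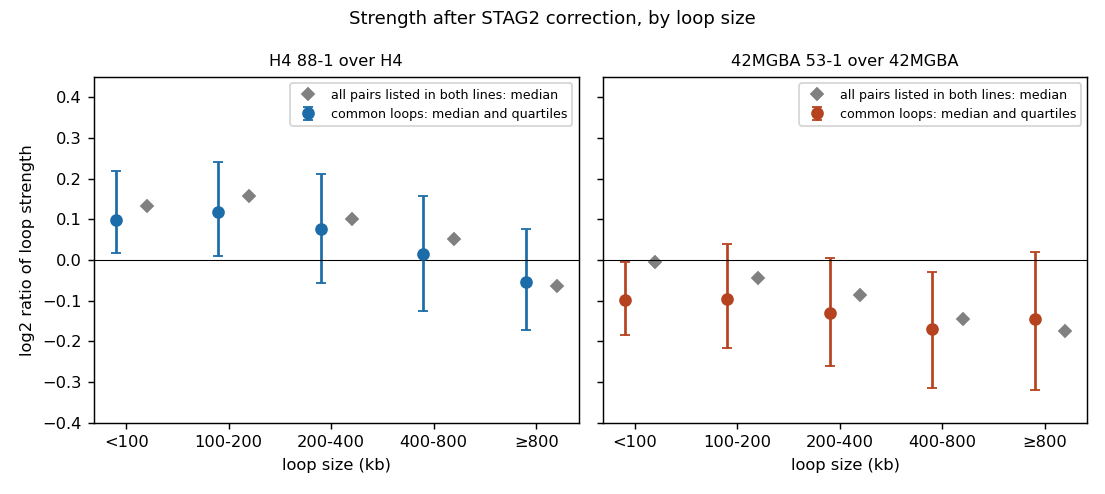
Log2 ratio of the strength in STAG2-corrected to that in STAG2-mutant cells (y axis) by loop size in kb (x axis), as median and quartiles of the common loops (circles with bars) and median of all pairs listed in both lines (diamonds). The median of the common loops goes from 0.099 under 100 kb to -0.054 at 800 kb or more in the H4 pair and lies below 0 in every bin of the 42MGBA pair.

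Few common loops differed by more than 1.5-fold, which follows in part from a rule that required high strength in both lines. In H4 88-1, 37 (0.599%) were higher and 3 (0.0485%) lower by this fold. The background over the merged 100000 strongest pairs of each line was 8.74% higher and 2.16% lower. In 42MGBA 53-1, 7 (0.113%) were higher and 153 (2.48%) lower, with a background of 1.46% and 10.2%. A z-score of the residual from a regression through the origin, with the cutoff of 1.96, was also used. By it 238 common loops (3.85%) were higher and 297 (4.81%) lower in H4 88-1 (background 1.94% and 2.17%). By the same z-score 285 (4.61%) were higher and 319 (5.16%) lower in 42MGBA 53-1 (background 1.61% and 2.45%). The shares were thus below the background by fold and above it by z-score. The loops were chosen on these strengths, and nothing is read from the counts against the background.

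The representatives with the highest ratio of H4 88-1 to H4 were under 200 kb. One, of 149 kb, joined an annotated start of the histone deacetylase gene HDAC11 at chr3:13535762-13540734 to chr3:13685095-13689393 across FBLN2, a matrix protein gene. It measured 9.19 in H4 but 15.8 in H4 88-1. In the other system the order was the opposite, with 13.4 in 42MGBA and 10.8 in 42MGBA 53-1. The other, of 160 kb, joined an annotated start of SH3TC1 at chr4:8242507-8247515 to chr4:8402857-8407769 in ACOX3 across the serine protease gene HTRA3. It measured 10.6 in H4 and 17.1 in H4 88-1 but 10.8 in 42MGBA and 10.1 in 42MGBA 53-1.

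The representatives with the lowest ratio of H4 88-1 to H4 were longer. A 635 kb loop between chr21:39874431-39879407 in an intron of ERG and chr21:40509912-40514881, around the ETS factor genes ERG and ETS2, measured 16.3 in H4 but 10.3 in H4 88-1 and 14.3 in 42MGBA but 9.94 in 42MGBA 53-1. A 553 kb loop between chr10:64926231-64931072 in JMJD1C, a histone demethylase family gene, and chr10:65479403-65484250 measured 15.4, 9.89, 14.4 and 12.5 in the same order. Both were lower in the corrected line of each system. Only 25.3% of all common loops were stronger in 42MGBA 53-1 than in 42MGBA, so a lower value there was the usual order. On chromosome 21 the common loops as a whole had a median log2 ratio of -0.12 between H4 88-1 and H4 and of -0.22 between 42MGBA 53-1 and 42MGBA.

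In the 42MGBA system, the highest ratio of corrected to mutant strength among the group representatives was at NFKBIA, which encodes the inhibitor of NF-kappa-B. Its 266 kb loop between chr14:35610605-35615431 and chr14:35876478-35881384 measured 9.97 in 42MGBA but 14.4 in 42MGBA 53-1, beside 11.7 in H4 and 10.9 in H4 88-1. The lowest ratios among them were in 2 neighboring groups on chromosome 7 that end at the same anchor, chr7:16108541-16113535, beyond the homeobox gene MEOX2. From chr7:15361041-15366039 in AGMO the loop measured 18.3 in 42MGBA but 8.84 in 42MGBA 53-1, and that from chr7:15341773-15346671 measured 17.8 and 9.44. In the H4 pair these loops measured 12.2 and 13.5 in H4 and 10.3 and 10.8 in H4 88-1.

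By chromosome, the median log2 ratio of 42MGBA 53-1 to 42MGBA at common loops ran from -0.35 on chromosome 11 (272 loops) to 0.16 on chromosome 16 (77 loops). That of H4 88-1 to H4 ran from -0.14 on chromosome 13, with only 10 loops, and -0.12 on chromosome 21 (151 loops) to 0.17 on chromosome 22 (30 loops). Chromosome 16 was the only one on which common loops were stronger after correction in both systems, with 0.12 in the H4 pair.

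Strengths differed more between the systems than between isogenic partners. The median absolute log2 ratio of common loops was 0.14 between H4 and H4 88-1 and 0.17 between 42MGBA and 42MGBA 53-1, against 0.24 between the STAG2-mutant lines and 0.21 between the STAG2-corrected lines. As a description over 6181 loops that share anchors and processing, Pearson's r of the log2 strengths was 0.78 and 0.77 within the isogenic pairs and 0.37 and 0.39 between lines of the same genotype. The loops were chosen on these same strengths, which cuts their range, so that r does not hold for all loops. The highest strength of a loop was that of 42MGBA in 2506 loops (40.5%), of H4 88-1 in 1752, of H4 in 1110 and of 42MGBA 53-1 in 813. The lowest was most often that of 42MGBA 53-1, in 2450 loops (39.6%). By chromosome, the median log2 ratio of 42MGBA to H4 ran from -0.24 on chromosome 16 and -0.17 on chromosome 7 to 0.52 on chromosome 20.

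The ratio of the highest to the lowest of the 4 strengths had a median of 1.33 over the common loops and was over 2 in 160. The loops named next were chosen after their values were seen. The most even representative, of 385 kb between chr2:202658892-202663494 in CDK15 and chr2:203043925-203048886, encloses the WNT receptor gene FZD7 and measured 12.0 in H4 cells and 12.1 in H4 88-1, and 12.0 in 42MGBA and 11.9 in 42MGBA 53-1. A stronger even loop, of 386 kb between chr18:3277567-3282450 in MYL12B and chr18:3663074-3668087 in DLGAP1, encloses only TGIF1, a homeobox gene of the TGF-beta pathway, at 21.0, 21.7, 21.1 and 21.7. These loops varied by less than 1.04-fold over all lines and both genotypes.

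At the other end, the representative that most favored the 42MGBA system, of 304 kb, joined an annotated start of ABCA4 at chr1:94493186-94498182 to chr1:94797496-94802123 beyond ARHGAP29. It measured 10.9 in H4 cells and 12.6 in H4 88-1, and 31.4 in 42MGBA and 24.6 in 42MGBA 53-1. A 457 kb loop around PTGFR, the prostaglandin F receptor gene, between chr1:78608879-78613824 and chr1:79066385-79071315, measured 13.9, 11.2, 29.9 and 23.6. Those that most favored the H4 system joined SKAP2 at chr7:26892481-26897417 to HOXA3 at chr7:27174625-27179202, with 25.1, 26.8, 11.0 and 9.90, and BCL6, a transcriptional repressor gene, at chr3:187455765-187460503 to chr3:188669552-188674450 in TPRG1 across LPP, with 35.5, 28.8, 15.7 and 11.1. Even the most uneven of these loops stayed among the 20000 strongest of the weaker system, as the rule required.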

How the data were processed

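Hi-C was performed on 2 replicates of each of 4 cell lines with the Arima Hi-C+ kit. Reads were trimmed and aligned by the authors with bowtie to hg19, duplicates were removed, and read pairs were assigned to anchors of about 5 kb. The authors then applied HiCorr for bias correction and DeepLoop, a neural network that sharpens loops with the help of neighboring pixels. Each deposited list gives a signal (the loop strength) and a distance for the top 300000 anchor pairs, with the replicates of a line pooled. The version of bowtie is not given in the sources used here. The 12 RNA-seq samples were not analysed here.

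Lists were joined on identical anchors. Sizes were measured between anchor midpoints. Neighbors were joined when both midpoints lay within 10 kb. Genes were taken from GENCODE release 44 lifted to GRCh37, and no coordinate of the lists exceeded the length of its GRCh37 chromosome. A start site was that of any annotated transcript of a gene and could lie far from the 5′ end of the gene. The motif was searched on both strands. For calls, pairs absent from a list were given its lowest strength. Named are the 10 strongest group representatives, the 3 shortest and 3 longest, the 2 with the largest ratio in each direction of each isogenic pair, the pairs next to the rank limit, the 5 busiest anchors and up to 4 genes of each of 10 gene lists. One loop named by this rule is not reported here. The members, gene lists and rules were chosen with earlier results of these data known. The procedures were tested on simulated data. Alternatives changed the rank limit, the lists required, the joining distance, the start site distance, the motif and the scaling. Analyses ran in Python 3.11.15 (numpy 2.4.6, pandas 2.3.3, scipy 1.17.1), and figures were drawn with matplotlib 3.10.9.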

Additional observations from a re-analysis of the deposited data

Results flagged for a closer look

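Over the 6181 common loops, the log2 ratio of strength between H4 88-1 and H4 had a median of 0.063, and that between 42MGBA 53-1 and 42MGBA a median of -0.14. The result was picked out because the medians of the corrected over the mutant line had opposite signs in the 2 cell systems. Each system has its own mutation and 1 corrected derivative, so that correction cannot be told apart from other differences between the lines. With 1 pooled value per line, the difference between the systems was not tested. After the median of all pairs listed in both lines was subtracted, the values were -0.025 and -0.050 and no longer opposed.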

How the results depend on the processing

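The number of common loops was 2831 at a rank limit of 10000 and 16901 at 50000, and 10330 when anchors of the other lists could lie within 5 kb of those of H4. Dropping the requirement for 1 list gave 7131 to 7694. Joining neighbors within 5 or 20 kb gave 791 and 706 groups, and the median size ran from 309.6 to 352 kb over its alternatives. The share of loops with a start site at an anchor was 25.6% when the site had to lie inside the anchor, 66.5% within 10 kb, 61.9% with all annotated genes and 47.7% over group representatives. The share with convergent motifs was 4.66% with the looser motif of 8 fixed letters, 1.33% with the degenerate CTCF core, 6.36% within 5 kb of the anchor, 3.85% over representatives, 0 with the letters read backwards, 0.178% with 2 letters swapped and 0.0324% for divergent matches. The last 2 of these settings were chosen after seeing the data. The median log2 ratio of the H4 pair reversed to -0.025 after subtraction of the median over all listed pairs, whereas in the 42MGBA pair it stayed negative, at -0.050. Over representatives it was 0.082 and -0.16. Loops past 1.5-fold numbered 40 in H4 88-1 against H4 and 160 in 42MGBA 53-1 against 42MGBA, and there were 798 and 1236 past the smaller fold that was tried, 24 and 97 after centering, and 535 and 604 by the z-score. Why these values moved was not tested beyond the construction of each setting. No paired analysis was possible because the replicates of a line are pooled in 1 list, and for the same reason no replicate could be left out. Depth per loop is unknown, so that its limit cannot be stated.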
